A study of Mus musculus and Homo sapiens with 28 samples.

Results

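The data described here are the transcript levels of 10 genes of the blood vessel lining, Pecam1, Cdh5, Esam, Emcn, Kdr, Flt1, Tek, Tie1, Eng and Vwf, in tumours of Renca, a mouse renal carcinoma line. Each was taken as the row of its Ensembl identifier in the deposited mouse table, which holds 46078 rows. All 10 were found, and all 10 passed the filter on low values that left 15916 genes for testing. The 24 mouse libraries were labelled SETD2 KD with VE822 (n = 5), SETD2 KD untreated (n = 6), WT with VE822 (n = 6) and WT untreated (n = 7). All tumours were Renca cells placed in Matrigel under the skin of the back, although the tissue is labelled kidney. VE822, an inhibitor of ATR, the kinase that signals replication stress, was given by mouth at 60 mg/kg on 5 days a week from a tumour volume of about 100 mm3. SETD2 is a histone methyltransferase that is often lost in renal carcinoma. The labels and files used here do not give how it was lowered, whether the lines are clones, or the strain, sex and age of the host mice. Tumour cells and host cells are both mouse, so a transcript from either cannot be told apart. The labels do not say that each library came from its own animal, so each p-value reflects the spread among the deposited libraries, which may be technical.

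Endothelial cells line blood vessels, and a growing tumour takes its vessels from the host. Vascular endothelial growth factor (VEGF) made by tumour cells acts on receptor kinases of the endothelium and drives sprouting, while angiopoietins acting through the Tie receptors stabilise or loosen the vessel wall. Renal carcinoma is known for dense vessels, and drugs against VEGF receptors are a standard treatment of the disease.

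The 10 genes have different roles in these cells. Pecam1 (ENSMUSG00000020717, chromosome 11, 106654217 to 106750628, minus strand) encodes CD31, an adhesion protein of endothelial contacts that platelets and leukocytes also carry. Cdh5 (ENSMUSG00000031871, chromosome 8, 104101625 to 104144511, plus strand) encodes VE-cadherin, the cadherin of endothelial junctions. Esam (ENSMUSG00000001946, chromosome 9, 37528078 to 37538319, plus strand) encodes an adhesion molecule of endothelial tight junctions and platelets. Emcn (ENSMUSG00000054690, chromosome 3, 137341067 to 137432185, plus strand) encodes endomucin, a sialomucin of capillary and venous endothelium. Kdr (ENSMUSG00000062960, chromosome 5, 75932827 to 75978458, minus strand) encodes the main signalling receptor for VEGF-A. Flt1 (ENSMUSG00000029648, chromosome 5, 147561604 to 147726011, minus strand) encodes a receptor that binds VEGF-A tightly, signals weakly and limits the ligand that reaches Kdr. Tek (ENSMUSG00000006386, chromosome 4, 94739289 to 94874976, plus strand) encodes the angiopoietin receptor, and Tie1 (ENSMUSG00000033191, chromosome 4, 118471191 to 118490061, minus strand) its partner without a ligand of its own among the angiopoietins. Eng (ENSMUSG00000026814, chromosome 2, 32646595 to 32682669, plus strand) encodes endoglin, a co-receptor for bone morphogenetic proteins that macrophages and stromal cells can also carry. Vwf (ENSMUSG00000001930, chromosome 6, 125546774 to 125686679, plus strand) encodes von Willebrand factor, which endothelium stores in Weibel-Palade bodies and megakaryocytes pack into platelets.

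The coordinates are those of GENCODE vM21 on GRCm38. Eng overlaps Fpgs on the opposite strand and 3 small RNA genes on its own strand, and Cdh5 overlaps the antisense gene Gm29682. How reads from such overlaps were assigned, and whether by strand, is not given in the labels, so the values of Eng and Cdh5 are uncertain in that respect.

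RefSeq promoter windows (GRCm38.p6) were held for 6 of the 10 genes, Kdr, Tek, Emcn, Eng, Flt1 and Tie1. The 250 bases upstream of the start are printed for 3 of them, because Tek and Flt1 varied together across the libraries and Eng did not vary with them. Capitals mark CAGGAA or its reverse complement TTCCTG, letters found in many binding sites of ETS factors, a family of endothelial transcription factors. The windows lie at chr4:94739039-94739288 (plus strand) for Tek, chr5:147726012-147726261 (minus strand) for Flt1 and chr2:32646345-32646594 (plus strand) for Eng, and each is written 5′ to 3′ on the strand of its gene.
Tek: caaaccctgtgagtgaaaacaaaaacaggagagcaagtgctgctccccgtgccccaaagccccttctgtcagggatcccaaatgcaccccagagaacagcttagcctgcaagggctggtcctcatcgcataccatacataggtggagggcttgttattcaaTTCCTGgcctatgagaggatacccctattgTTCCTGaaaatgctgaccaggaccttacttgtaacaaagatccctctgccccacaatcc
Flt1: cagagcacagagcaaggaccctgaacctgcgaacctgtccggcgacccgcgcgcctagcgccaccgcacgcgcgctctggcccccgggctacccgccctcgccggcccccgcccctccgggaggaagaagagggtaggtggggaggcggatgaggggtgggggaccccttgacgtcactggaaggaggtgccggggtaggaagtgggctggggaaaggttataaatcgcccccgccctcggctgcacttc
Eng: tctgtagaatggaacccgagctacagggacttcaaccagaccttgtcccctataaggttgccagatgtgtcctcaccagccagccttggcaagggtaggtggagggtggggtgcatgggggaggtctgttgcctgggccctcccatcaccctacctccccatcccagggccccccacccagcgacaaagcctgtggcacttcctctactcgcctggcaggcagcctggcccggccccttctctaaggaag
The Tek window holds 2 such matches, and those of Flt1 and Eng hold 0. Among the other windows, Emcn has 2, Tie1 has 1 and Kdr has 0. Over the same 250 bases of 32851 RefSeq promoters, 25.7% hold CAGGAA on either strand. The related letters CCGGAA occur once in the Kdr window and in 12.03% of all promoters, and the GATA letters AGATAA occur in none of the 6 windows and in 10.0% of all promoters. Tek and Flt1 therefore differ in these letters, and a match is a description of letters, not of a bound site. The shorter letters GGAA, shared by CAGGAA and CCGGAA, were not counted alone. They also stand in the Flt1 and Eng windows, so a window without a match is not free of them.

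All values are rlog values, a log2 scale made by the authors that pulls in the differences of genes with few reads, so a fold change read from it can be too small. Levels on this scale are not adjusted for gene length and are compared here only within a gene. The median of the tested genes lay between 9.13 and 9.21 in all 24 libraries, and between 12906 and 13381 genes were above an rlog of 5. The level of Setd2 did not bear out the genotype label in untreated tumours. It averaged 10.81 ± 0.07 in libraries labelled SETD2 KD untreated and 10.83 ± 0.07 in those labelled WT untreated (SD, n = 6 and 7). The difference was -0.02 (limma adjusted p = 0.9999). Genotype is therefore given throughout as a label. With VE822, Setd2 was lower by 1.09 under the SETD2 KD label and by 0.80 under the WT label (limma adjusted p = 1.08e-07 and 1.19e-06). Between the labels under VE822 it differed by -0.31 (adjusted p = 0.225). SETD2 KD VE822 replicate 4 stood apart from its group. Its Igf2, a fetal growth factor, was at 6.37, where the median of its group was 11.14 and the highest untreated library was at 6.63. Its Setd2 was at 9.96, inside the VE822 range. Values without this library are given for the 10 genes where it moves them, and for the vascular lists under the SETD2 KD label.

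VE822 went with more Vwf transcript under both genotype labels, and with no call for the other 9 genes in either. Under the SETD2 KD label 1 of the 10 genes was called higher and 0 lower, where 10.6% of all genes tested were called higher and 11.6% lower. Under the WT label 1 was called higher and 0 lower, where 17.2% of all genes were called higher and 17.5% lower. A gene counted as called if limma gave it a Benjamini-Hochberg p-value under 0.05 across all 15916 genes. The median difference over the 10 genes was 0.22 under the SETD2 KD label and 0.16 under the WT label, beside 0.01 and 0.01 for all genes tested. The median under the SETD2 KD label was -0.09 without SETD2 KD VE822 replicate 4, so its sign rests on that library. Under the WT label, Pecam1, Cdh5, Kdr and Flt1 went below 0 without WT VE822 replicate 4 (-0.05 to -0.0006). Eng and Esam were below 0 whichever library was left out. The sign of the WT label median therefore also rests on 1 library. In bulk tumour RNA, a change in the number of endothelial cells and a change in RNA per endothelial cell cannot be told apart.

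**Figure D1:**
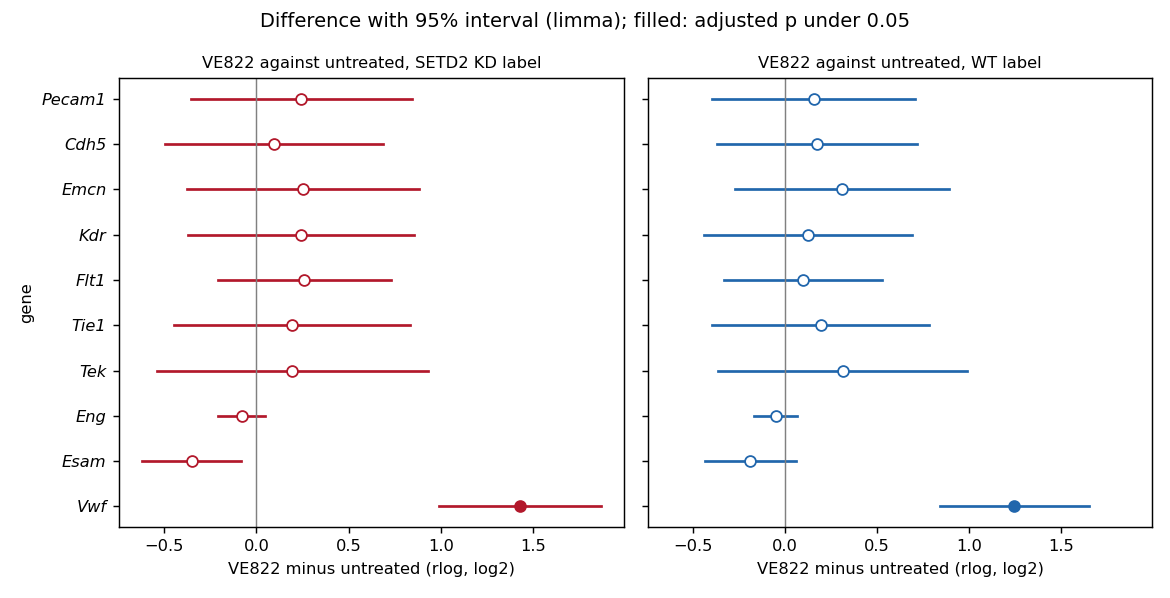
Difference between VE822 and untreated libraries for each of the 10 genes (x axis, rlog on the log2 scale), under the SETD2 KD label (left) and the WT label (right). Points are limma estimates, lines are 95% intervals, and filled points passed an adjusted p of 0.05: Vwf lies at 1.43 and 1.24, and the intervals of the other genes except Esam under the SETD2 KD label cross 0.

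Vwf had an rlog of 9.74, 9.86, 9.85, 8.47 and 9.99 in the libraries labelled SETD2 KD with VE822 (replicates 1 to 5), against a lowest of 7.91, a median of 8.15 and a highest of 8.53 in SETD2 KD untreated libraries (n = 6). Replicate 4 lay inside the untreated range and the other 4 lay far above it. In WT libraries it was at 8.88, 9.35 and 9.53 (lowest, median, highest) with VE822, against 7.49, 8.0005 and 8.62 untreated, and these groups did not overlap. Vwf rose by 1.43 ± 0.21 (SE; 2.69-fold, adjusted p = 4.44e-05) under the SETD2 KD label and by 1.24 ± 0.20 (2.37-fold, adjusted p = 4.09e-05) under the WT label. Without SETD2 KD VE822 replicate 4 the first difference was 1.71 (adjusted p = 2.76e-08). Of the 11 VE822 libraries, 10 were above all 13 untreated ones. The call was kept under both labels in all 34 other settings tried, which include leaving out each library in turn.

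The level of Vwf is set beside the levels of its chromosome and of platelet genes. On chromosome 6, which carries Vwf, the median of 789 genes was 0.06 to 0.08 above their 24-library means in WT VE822 libraries and below them in every untreated library (-0.08 to -0.01 under the SETD2 KD label and -0.12 to -0.04 under the WT label). It reached 0.08 in the SETD2 KD VE822 group but was -0.15 in replicate 4, the library with low Vwf. After each library was centred chromosome by chromosome on its median, Vwf still rose, by 1.41 (adjusted p = 2.29e-05) under the SETD2 KD label and 1.15 (adjusted p = 4.68e-05) under the WT label. Of 12 platelet and megakaryocyte genes, the other known source of Vwf, 8 were below the filter in all groups, among them the defining glycoproteins Gp9 (highest library -0.11) and Gp1ba (highest library -0.88). Pf4 averaged 9.52 with VE822 against 9.77 untreated under the SETD2 KD label, and 9.90 against 10.06 under the WT label, and was not called. Itgb3, an integrin that many cells carry, rose by 0.37 and 0.41 (adjusted p = 0.00677 and 0.00105). Itga2b, also on the platelet list, was higher by 0.27 and 0.19 and was not called under either label. In the mean of both labels, a contrast added after the data had been seen, 2 of the 4 tested platelet genes were called higher. In it 21.5% of all genes were called higher. The part of platelets or of chromosome 6 in the level of Vwf was not tested.

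Eng (-0.08 and -0.05) and Esam were below 0 under both labels. Esam had the lowest difference of the set under each label, and its call depended on the libraries used. Esam was at 9.73, 9.65, 9.28, 10.25 and 9.58 in SETD2 KD VE822 replicates 1 to 5, against 10.02, 10.04 and 10.12 (lowest, median, highest) in SETD2 KD untreated libraries. Only replicate 4 was above the untreated range, and the other 4 were below it. In WT libraries Esam was at 9.55, 9.84 and 10.31 with VE822, against 9.90, 10.07 and 10.27 untreated, and these groups overlapped. The difference was -0.35 ± 0.13 under the SETD2 KD label (SE; 95% interval -0.62 to -0.08, adjusted p = 0.0539) and -0.19 ± 0.12 under the WT label (-0.43 to 0.06, adjusted p = 0.233). Without SETD2 KD VE822 replicate 4 the first was -0.49 (adjusted p = 0.00208).

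A contrast of the mean VE822 difference over both labels, added after the data had been seen, called 1 of the 10 genes higher, Vwf, and 1 lower, Esam. In this contrast 21.5% of all genes were called higher and 21.4% lower. Vwf rose by 1.34 ± 0.14 (2.53-fold, adjusted p = 1.29e-07) and Esam fell by 0.27 ± 0.09 (1.21-fold, adjusted p = 0.0161). Of the 11 VE822 libraries, 7 had less Esam than every untreated library and 1 had more than every untreated one. Both calls were kept when each library was left out in turn. Without SETD2 KD VE822 replicate 2, Eng was called as well.

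**Figure D2:**
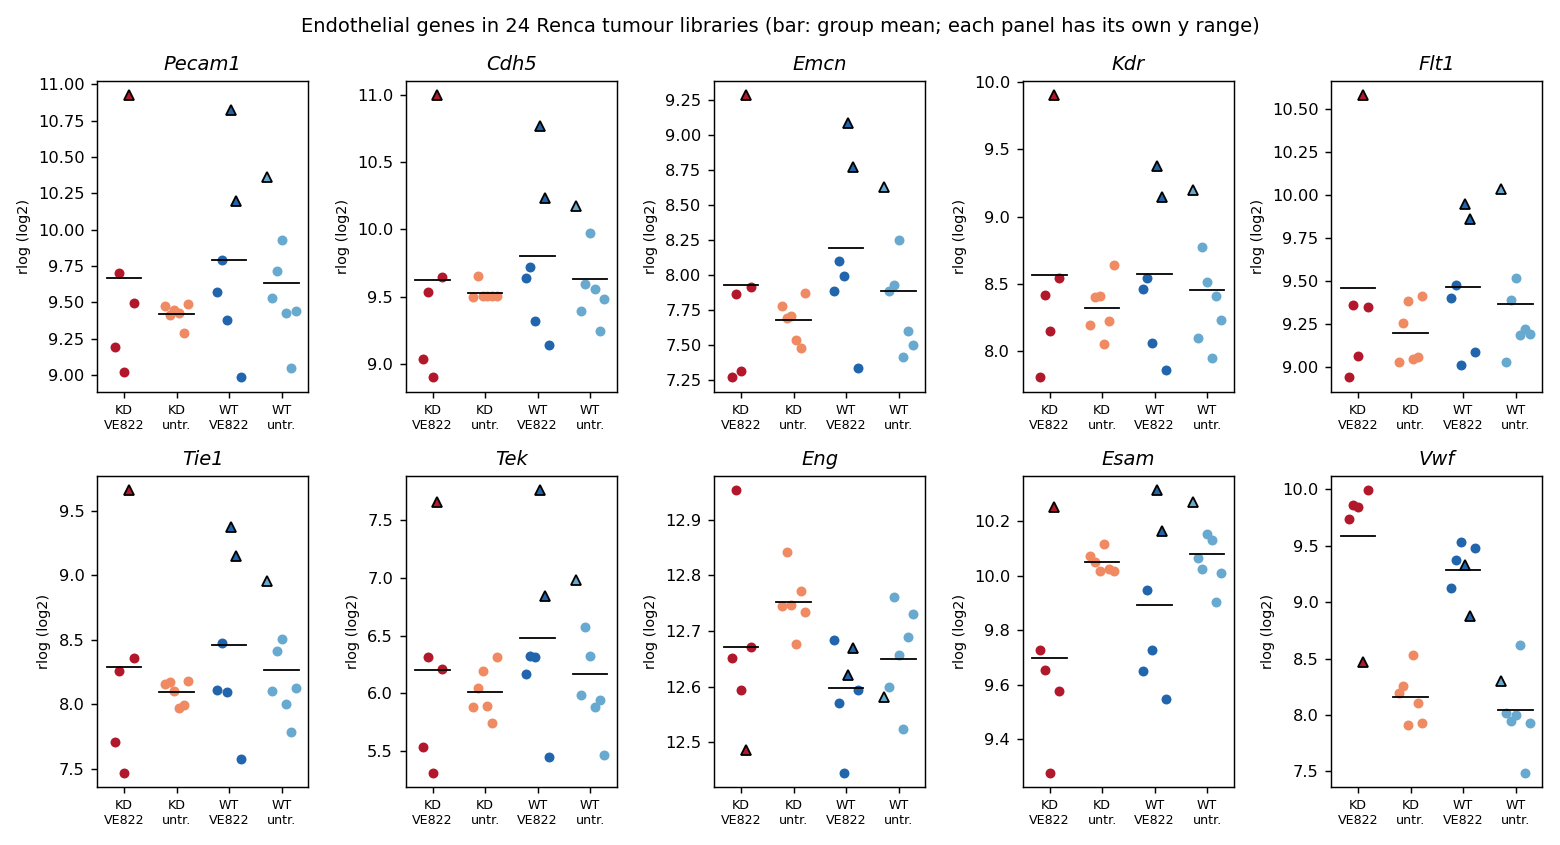
The rlog value of each gene (y axis, log2 scale, own range per panel) in each of the 24 libraries, by group (x axis: SETD2 KD VE822, SETD2 KD untreated, WT VE822, WT untreated). Horizontal bars are group means and triangles mark the 4 libraries that were highest in 7 of the genes: in the Vwf panel 10 of 11 VE822 libraries lie above all untreated ones, and in every other panel the groups overlap.

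The other junction and surface genes of the set also overlapped between groups. Pecam1 was at 9.19, 9.71, 9.02, 10.93 and 9.49 in SETD2 KD VE822 replicates 1 to 5, against 9.29, 9.44 and 9.49 (lowest, median, highest) untreated, and at 8.98, 9.68 and 10.82 in WT VE822 libraries, against 9.05, 9.53 and 10.36 untreated. VE822 libraries therefore lay on both sides of the untreated ones. Its difference was 0.24 ± 0.29 (95% interval -0.36 to 0.84, adjusted p = 0.601) under the SETD2 KD label and 0.15 ± 0.27 (-0.40 to 0.71, adjusted p = 0.687) under the WT label. Cdh5 differed by 0.10 (-0.49 to 0.68, adjusted p = 0.851) and 0.17 (-0.37 to 0.71, adjusted p = 0.643). Emcn differed by 0.25 (-0.38 to 0.88, adjusted p = 0.605) and 0.31 (-0.27 to 0.89, adjusted p = 0.418). A missed threshold does not show equal levels.

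The VEGF receptors were not called. Kdr ranged from 7.80 to 9.90 in SETD2 KD VE822 libraries, against 8.05 to 8.64 untreated, and from 7.86 to 9.38 in WT VE822 libraries, against 7.94 to 9.20 untreated. Flt1 ranged from 8.94 to 10.58 in SETD2 KD VE822 libraries, against 9.03 to 9.41 untreated, and from 9.01 to 9.95 in WT VE822 libraries, against 9.03 to 10.04 untreated. For both receptors the untreated range under the SETD2 KD label lay wholly inside the VE822 range. The differences of Kdr were 0.24 ± 0.30 (SE) and 0.12 ± 0.27 under the SETD2 KD and WT labels (adjusted p = 0.612 and 0.761), and those of Flt1 were 0.26 ± 0.23 and 0.10 ± 0.21 (adjusted p = 0.455 and 0.753).

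The Tie receptors were not called either. Tek ranged from 5.31 to 7.66 in SETD2 KD VE822 libraries, against 5.74 to 6.32 untreated, and from 5.45 to 7.76 in WT VE822 libraries, against 5.46 to 6.98 untreated. Tie1 ranged from 7.47 to 9.66 in SETD2 KD VE822 libraries, against 7.97 to 8.18 untreated, and from 7.58 to 9.38 in WT VE822 libraries, against 7.79 to 8.95 untreated. Under each label the treated libraries of both genes extended beyond the untreated ones at both ends. The differences of Tek were 0.20 ± 0.36 (SE) and 0.31 ± 0.33 (adjusted p = 0.744 and 0.488), and those of Tie1 were 0.19 ± 0.31 and 0.19 ± 0.29 (adjusted p = 0.710 and 0.632).

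Eng varied least of the 10. It was at 12.65, 12.95, 12.59, 12.49 and 12.67 in SETD2 KD VE822 replicates 1 to 5, against 12.68, 12.75 and 12.84 (lowest, median, highest) untreated, and at 12.45, 12.61 and 12.68 in WT VE822 libraries, against 12.52, 12.66 and 12.76 untreated. All 4 groups overlapped. Its differences were -0.08 ± 0.06 (95% interval -0.21 to 0.05, adjusted p = 0.386) under the SETD2 KD label and -0.05 ± 0.06 (-0.17 to 0.07, adjusted p = 0.513) under the WT label. Without SETD2 KD VE822 replicate 2, the highest library, the first was -0.15 (adjusted p = 0.0473). Fpgs, which shares its locus on the other strand, was at 9.83 ± 0.14 in SETD2 KD VE822, 9.97 ± 0.07 in SETD2 KD untreated, 9.92 ± 0.07 in WT VE822 and 9.87 ± 0.09 in WT untreated libraries (SD).

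The VE822 libraries covered a wider range than the untreated ones for all 10 genes. Over both labels, Pecam1 covered 1.94 in 11 VE822 libraries against 1.31 in 13 untreated ones, Cdh5 2.10 against 0.93, and Tie1 2.19 against 1.17. The range of Vwf was 1.52 against 1.13. For Vwf and Flt1 the wider range rested on SETD2 KD VE822 replicate 4. Without it the VE822 libraries ran from 8.88 to 9.99 for Vwf, against 7.49 to 8.62 untreated. For Flt1 they then ran from 8.94 to 9.95, against 9.03 to 10.04 untreated, so neither range was wider. For Eng the wider range rested on SETD2 KD VE822 replicate 2, at 12.95. Without that library the VE822 libraries ran from 12.45 to 12.68 for Eng, against 12.52 to 12.84 untreated. Libraries labelled SETD2 KD untreated were the most alike: Pecam1, Cdh5, Tie1 and Esam covered 0.20, 0.16, 0.21 and 0.10 there. These spreads are a description and were not tested.

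The genotype label made no call among the 10 genes. Between SETD2 KD and WT untreated libraries limma called 0 of 15916 genes (0%), with 512 under an unadjusted p of 0.05 and none of the 10 among them. The differences of the 10 genes ran from -0.21 (Pecam1) to 0.11 (Vwf), with adjusted p-values of 1.00. Between SETD2 KD VE822 and WT VE822 libraries 2 genes were called (0.0126%), neither of them among the 10, whose differences ran from -0.27 (Tek) to 0.30 (Vwf, adjusted p = 0.559). The interaction of VE822 with the genotype label, which tests whether the VE822 differences are unequal, called 0 of 15916 genes (0%), with 1452 under an unadjusted p of 0.05 and none of the 10 among them. For Vwf the interaction was 0.19 ± 0.29 (95% interval -0.41 to 0.78, adjusted p = 0.863) and for Esam -0.16 ± 0.18 (-0.53 to 0.20, adjusted p = 0.789).

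SETD2 KD VE822 libraries set against WT untreated ones, a comparison that shares both groups with those above, called Vwf higher and Esam lower. In it 12.1% of all genes were called higher and 12.4% lower. Vwf differed by 1.54 ± 0.21 (2.91-fold, adjusted p = 9.92e-06) and Esam by -0.38 ± 0.13 (1.30-fold lower, adjusted p = 0.0285). These differences were 1.82 and -0.52 without SETD2 KD VE822 replicate 4 (adjusted p = 4.69e-09 and 0.000782). The Esam call was lost without SETD2 KD VE822 replicate 2, 3 or 5 (-0.37, -0.28 and -0.35, adjusted p = 0.0617, 0.118 and 0.0749) and without WT untreated replicate 1 (-0.35, adjusted p = 0.0552). The other 8 genes differed by between -0.01 (Cdh5) and 0.11 (Kdr). By group mean, WT VE822 was the highest group and SETD2 KD untreated the lowest for Pecam1, Cdh5, Kdr, Flt1, Tek, Tie1 and Emcn, but no neighbouring groups in that order differed beyond the spread between libraries.

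Within groups, 7 of the 10 genes shared their variation between libraries. Pecam1, Cdh5, Emcn, Kdr, Flt1, Tie1 and Tek, grouped after their values had been seen, varied together across the 24 libraries. As deviations from the mean of their own group, the 21 pairs among these 7 genes correlated with Pearson's r between 0.89 and 0.98 (n = 24). The points of a pair share a library, and the relation is given as a description. The closest pair was Pecam1 and Tie1 (r = 0.98, Spearman's rho = 0.94), and r was 0.96 over the 22 libraries left without the 2 farthest in Pecam1.

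**Figure D3:**
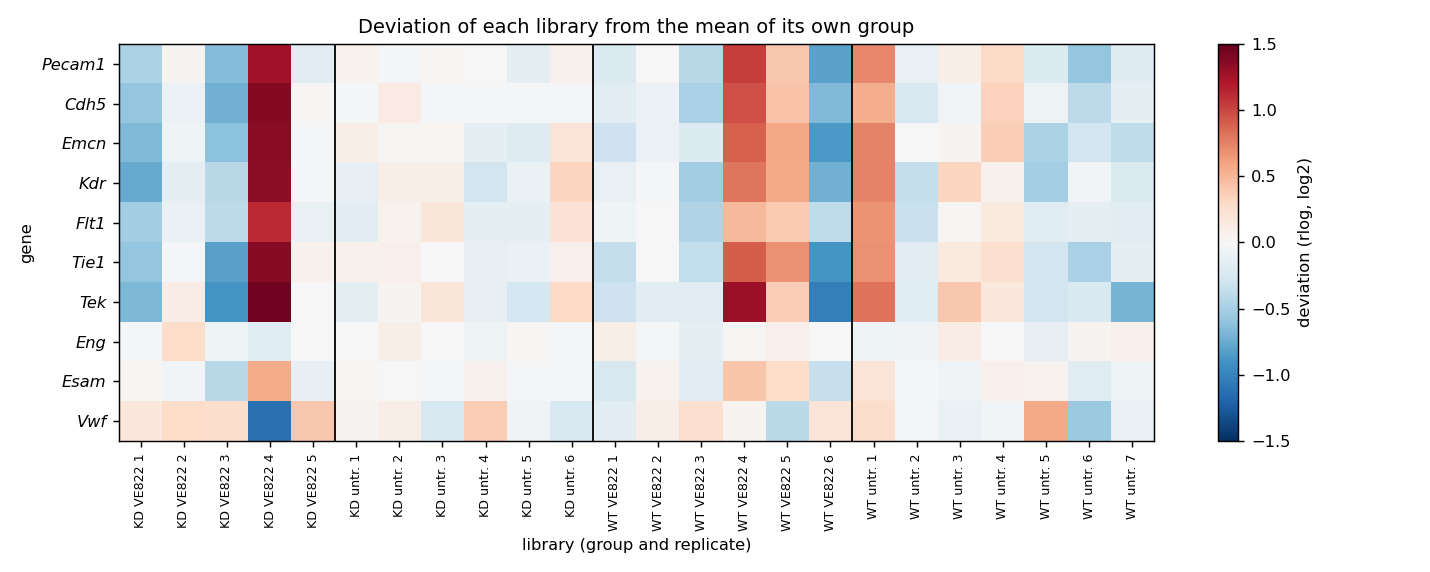
Deviation of each library (columns, grouped as SETD2 KD VE822, SETD2 KD untreated, WT VE822, WT untreated) from the mean of its own group for each gene (rows), in rlog units on the log2 scale, with red above and blue below. The upper 7 rows share their red columns, SETD2 KD VE822 replicate 4, WT VE822 replicates 4 and 5 and WT untreated replicate 1, while Eng stays near 0 and Vwf is blue in SETD2 KD VE822 replicate 4.

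For all 7 genes the same 4 libraries had the highest levels: SETD2 KD VE822 replicate 4, WT VE822 replicates 4 and 5 and WT untreated replicate 1. They belong to 3 of the 4 groups. Without them r among the 21 pairs lay between 0.61 and 0.93 (n = 20). SETD2 KD VE822 replicate 4 was above the mean of the other 4 libraries of its group by 1.57 for Pecam1, 1.72 for Cdh5, 1.70 for Emcn, 1.68 for Kdr, 1.40 for Flt1, 1.71 for Tie1 and 1.81 for Tek. Without that library the VE822 difference under the SETD2 KD label was below 0 for all 7, between -0.25 (Cdh5) and -0.02 (Flt1), and none was called. Without WT VE822 replicate 4 the WT label differences of Pecam1, Cdh5, Kdr and Flt1 were likewise below 0, between -0.05 (Pecam1) and -0.0006 (Flt1), with no call.

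Esam followed the 7 in part, with r between 0.76 and 0.91 over 24 libraries and between 0.04 and 0.67 without the 4. Eng did not follow them (r between -0.14 and -0.04, and between 0.25 and 0.52 without the 4). Vwf ran the other way, with r between -0.62 and -0.42, but without the 4 libraries r lay between -0.44 and 0.16. With Pecam1 alone, r of Vwf was -0.42 over 24 libraries and -0.10 without the 2 farthest. Of these 2, SETD2 KD VE822 replicate 4 was low in Vwf for its group (8.47, group mean 9.58), and WT VE822 replicate 4 was not (9.33, group mean 9.29).

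**Figure D4:**
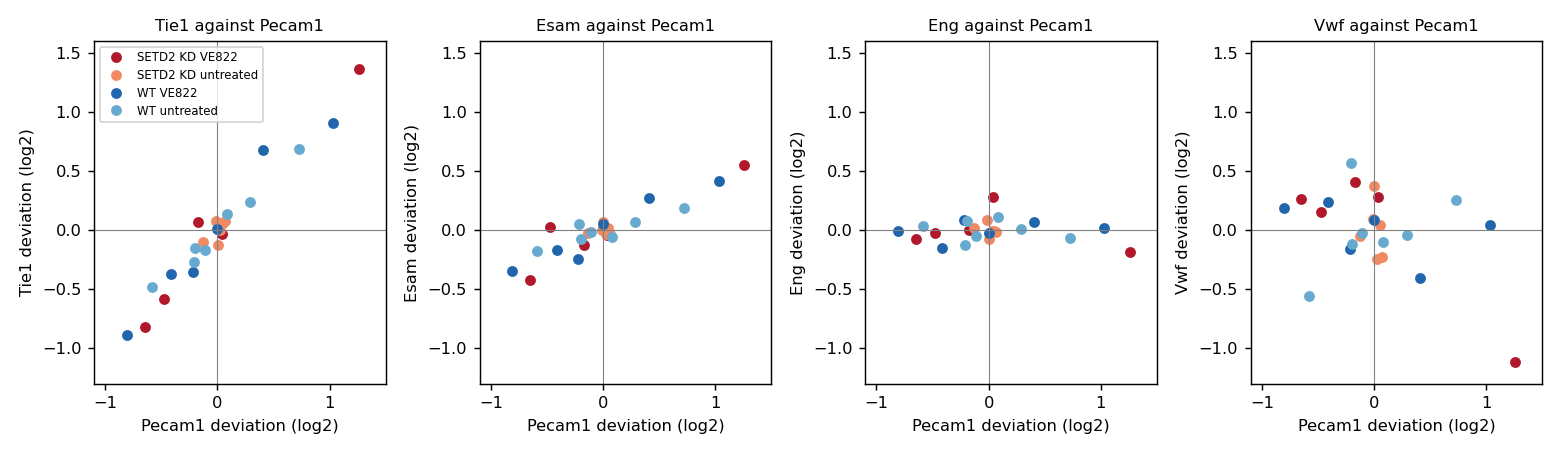
Deviation from the own group mean of Tie1, Esam, Eng and Vwf (y axes) against that of Pecam1 (x axis), both in rlog units on the log2 scale, 1 point per library coloured by group. Tie1 rises with Pecam1 along a line (r = 0.98), Esam rises less steeply (r = 0.91), Eng stays near 0, and the lowest Vwf point, SETD2 KD VE822 replicate 4, is the highest in Pecam1.

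Other transcripts were high in the same 4 libraries. The mean of 18 further pan-endothelial genes lay between 8.16 and 8.71 in the 4 and between 7.11 and 7.81 in the other 20. The mean of 10 mural cell genes, which mark the pericytes and smooth muscle around vessels, lay between 9.15 and 9.85 in the 4 and between 8.24 and 8.84 in the other 20. Both lists separated the 4 libraries from all others. The mean of 8 adipocyte genes lay between 7.11 and 7.48 in the 4, against a median of 5.20 and a highest of 7.76 in the other 20. The fibroblast mean lay between 10.10 and 11.89, against a median of 9.43 and a highest of 10.67. The part that host tissue in the sampled piece had in these levels was not tested. Without the 8 libraries highest in adipocyte genes, a setting added after the data had been seen, Vwf rose by 1.66 and 1.32 under the SETD2 KD and WT labels (adjusted p = 5.20e-06 and 5.65e-05), and Esam fell by 0.53 and 0.34 (adjusted p = 0.000691 and 0.0148). The 8 include all 4 libraries named above, so the setting does not separate adipocyte from endothelial levels. It left 3 libraries in each VE822 group and 5 in each untreated group.

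The 10 genes whose deviations followed the mean of the set most closely, by Pearson's r over 24 libraries, were Lama4, Robo4, Cd34, Mcam, Nid1, Dlc1, Col4a1, Fgd5, Mxra7 and Tcaf2. Their r lay between 0.96 and 0.98, and between 0.85 and 0.95 without the 4 libraries. Of these, 3 were in the vascular lists used here (Robo4, Cd34 and Mcam). For Vwf alone, the closest were Csrnp1, Ctsk, Lct, AU022252 and Saraf, with r between 0.86 and 0.87 and between 0.63 and 0.79 without the 4, and none of these was among the genes closest to the set.

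The partners of these receptors were taken from 12 lists of 93 vascular genes, of which 86 passed the filter. Under the SETD2 KD label 10 of the 86 were called higher with VE822 and 8 lower, and under the WT label 10 were higher and 10 lower. These are 11.6% and 9.3% under the SETD2 KD label, near the 10.6% and 11.6% of all genes, and 11.6% each way under the WT label, below the 17.2% and 17.5% of all genes. Nothing is read from these counts about the lists, and their genes are described singly. Without SETD2 KD VE822 replicate 4, a setting added after the data had been seen, 9 were higher and 13 lower under the SETD2 KD label (10.5% and 15.1%, beside 14% and 13.9% of all genes). Of the 18 calls 15 were kept, those of Pdgfb, Notch1 and Vcam1 were lost, and Pgf (0.73, adjusted p = 0.0137), Vegfb, Nrp1, Smad1, Smad6, Elk3 and Nid2 were called in addition. Between genotype labels, untreated or with VE822, 0 were called. The median difference of the 86 was 0.12 under the SETD2 KD label (-0.10 without that library) and 0.09 under the WT label. Of the 18 further pan-endothelial genes, 0 were called under the SETD2 KD label and 1 under the WT label, Ecscr, a regulator of endothelial migration (-0.01 and 0.30, adjusted p = 0.947 and 0.0152). Of the 7 other junction and surface genes 0 and 1 were called, Podxl, a sialomucin of the vessel surface (0.45 and 0.65, adjusted p = 0.0649 and 0.00307).

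**Figure D5:**
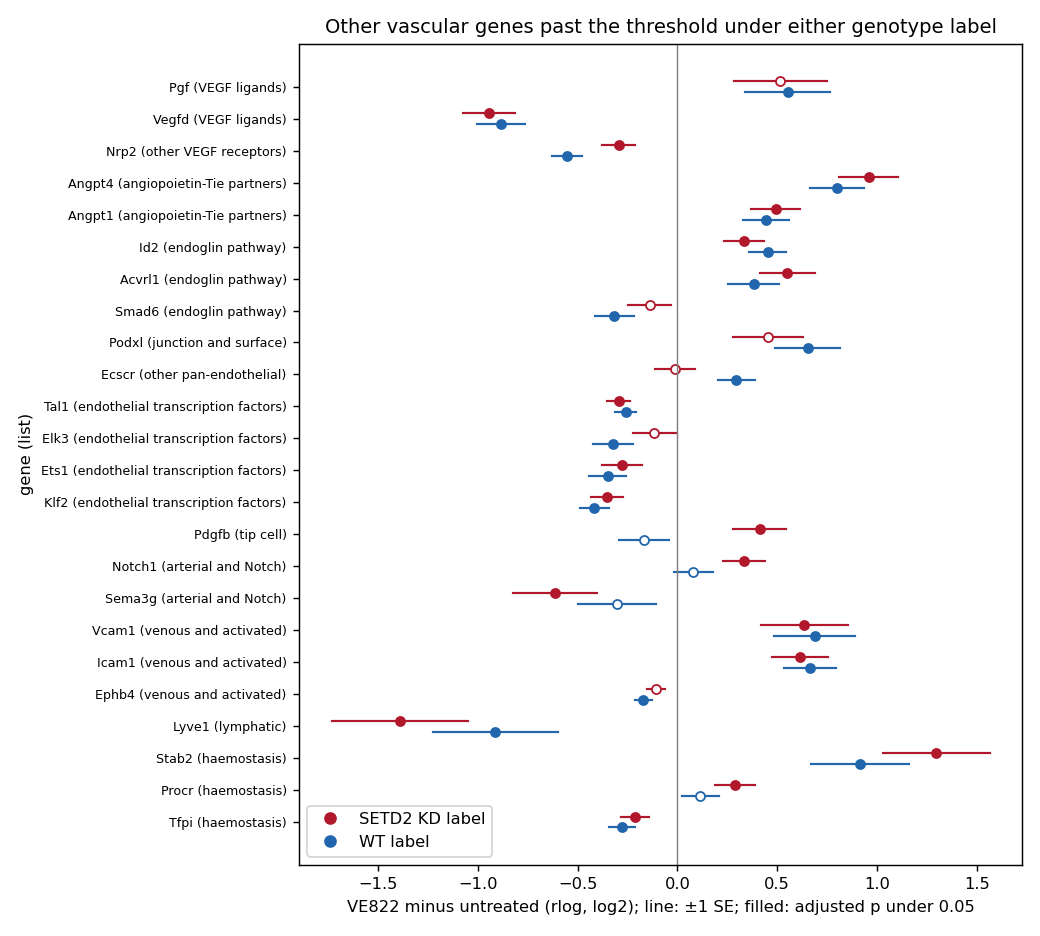
Difference between VE822 and untreated libraries (x axis, rlog on the log2 scale, lines ±1 SE) for the 24 vascular genes, other than the 10, that passed the threshold under either genotype label, with the list of each gene in brackets. Red is the SETD2 KD label, blue the WT label, and filled points passed an adjusted p of 0.05: Stab2, Angpt4, Vcam1, Icam1 and Acvrl1 lie to the right under both labels, and Lyve1, Vegfd, Nrp2 and Klf2 to the left.

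Among the ligands of Kdr and Flt1, Vegfa, the main angiogenic factor, was not called. It averaged 12.35 ± 0.16 in SETD2 KD VE822 libraries against 12.46 ± 0.14 untreated, and 12.33 ± 0.23 in WT VE822 libraries against 12.52 ± 0.21 untreated (SD; adjusted p = 0.551 and 0.158). Pgf, a ligand of Flt1, differed by 0.52 and 0.55 and was called under the WT label only (adjusted p = 0.117 and 0.0475). Vegfd, which acts on the lymphatic receptor Flt4, fell by 0.95 ± 0.13 and 0.88 ± 0.12 (SE; adjusted p = 1.88e-05 and 7.03e-06), and its VE822 libraries, at 10.84 to 11.79 and 11.30 to 11.77, all lay below the untreated ones, at 12.24 to 12.51 and 12.12 to 12.66. Nrp2, a co-receptor for VEGF and semaphorins, fell by 0.29 and 0.55 (adjusted p = 0.0123 and 8.48e-06), although SETD2 KD VE822 replicate 4, at 13.63, was its highest library.

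Of the angiopoietins that bind Tek, Angpt1 and Angpt4 rose under both labels and Angpt2, which can oppose Angpt1, was not called. Angpt1, the ligand that stabilises vessels, rose by 0.49 and 0.44 under the SETD2 KD and WT labels (adjusted p = 0.00587 and 0.00415). Angpt4 lay between 6.71 and 7.39 in SETD2 KD VE822 libraries against 6.02 to 6.12 untreated, and between 6.52 and 7.25 in WT VE822 libraries against 5.56 to 6.32 untreated, with no overlap under either label (0.96 ± 0.15 and 0.80 ± 0.13, SE; adjusted p = 5.77e-05 and 8.45e-05). Angpt2 differed by 0.09 and -0.12 (adjusted p = 0.806 and 0.688). Of the 10 genes that act with Eng, 2 rose under both labels, a share near the 10.6% and 17.2% of all genes called higher: Acvrl1, the receptor kinase that endoglin assists, by 0.55 and 0.38 (adjusted p = 0.00532 and 0.0217), and Id2, a target of that pathway, by 0.33 and 0.45 (adjusted p = 0.0178 and 0.000559). Smad6, an inhibitor of the pathway, was called lower under the WT label (-0.14 and -0.32, adjusted p for WT = 0.0147).

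Of 5 haemostasis genes, the list nearest to Vwf in function, Stab2, a scavenger receptor of sinusoidal endothelium, rose by 1.30 ± 0.27 and 0.91 ± 0.24 (SE; adjusted p = 0.00112 and 0.00561). It lay between 4.12 and 5.69 in SETD2 KD VE822 libraries against 3.74 to 4.08 untreated, with replicate 4 the lowest treated library, and between 3.99 and 5.71 in WT VE822 libraries against 3.72 to 4.42 untreated. Tfpi, an inhibitor of coagulation, fell by 0.21 and 0.28 (adjusted p = 0.0319 and 0.00192). Procr, the endothelial protein C receptor, rose under the SETD2 KD label (0.29 and 0.11, adjusted p for SETD2 KD = 0.0415), and F8 and Thbd were not called. Of 6 venous and activation genes, the leukocyte adhesion molecules Vcam1 and Icam1 rose, Vcam1 by 0.64 and 0.69 (adjusted p = 0.0396 and 0.0108; 0.47 and adjusted p = 0.112 under the SETD2 KD label without replicate 4) and Icam1 by 0.62 and 0.67 (adjusted p = 0.00284 and 0.000381). All 7 T cell genes under the SETD2 KD label and 6 of 7 under the WT label also rose, where 10.6% and 17.2% of all genes were called higher. Without replicate 4 the call of Cd4 ended, which left 6 under the SETD2 KD label. The T cell list means were 6.0001 to 6.82 against 5.17 to 5.53 and 5.50 to 6.80 against 5.11 to 5.77. The part of T cells in the adhesion molecule levels was not tested.

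Of 12 endothelial transcription factors, 3 fell under the SETD2 KD label and 4 under the WT label, where 11.6% and 17.5% of all genes were called lower. Those that fell under both were Klf2, which responds to blood flow (-0.35 and -0.42, adjusted p = 0.00283 and 0.000146), Tal1 (-0.29 and -0.26, adjusted p = 0.000650 and 0.000531) and Ets1 (-0.28 and -0.35, adjusted p = 0.0470 and 0.00456). Elk3 was called lower under the WT label alone (-0.12 and -0.32, adjusted p for WT = 0.0137). Erg and Fli1, ETS factors of the endothelial programme, were not called, and macrophages and T cells are known to express several of the others. Of the lymphatic genes Prox1, Reln, Mmrn1 and Ccl21a were below the filter, so that the list had 2 tested members. Lyve1, a hyaluronan receptor that macrophages share with lymphatic endothelium, fell by 1.39 ± 0.34 and 0.91 ± 0.31 (SE; adjusted p = 0.00470 and 0.0266). Of 9 macrophage genes 3 fell under both labels, Cd68, Mrc1 and Cd14, while Fcgr1 rose under the SETD2 KD label (0.41 and 0.13, adjusted p for SETD2 KD = 0.0353; 0.0892 without replicate 4). The list's median difference was 0.04 and -0.05, and the macrophage list mean was 12.21 to 12.59 and 11.97 to 12.53 with VE822 against 12.25 to 12.48 and 12.19 to 12.61 untreated.

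Tip cell and arterial genes gave few calls. Pdgfb, which recruits pericytes, rose under the SETD2 KD label (0.41 and -0.17, adjusted p for SETD2 KD = 0.0294, and 0.0821 without replicate 4), as did the receptor Notch1 (0.33 and 0.08, adjusted p for SETD2 KD = 0.0253, and 0.0588 without replicate 4), while Sema3g, a semaphorin of arterial endothelium, fell (-0.61 and -0.30, adjusted p for SETD2 KD = 0.0398). Dll4, Esm1 and Apln, genes of sprouting tips, were not called under either label. Ephb4, a receptor of venous endothelium, was called lower under the WT label (-0.11 and -0.17, adjusted p for WT = 0.00279). None of the 86 genes had an interaction that passed the threshold, so none of these differences between labels was shown.

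Genes of other cell types were set beside the vascular ones. Of all genes tested, 10.6% were called higher and 11.6% lower under the SETD2 KD label, and 17.2% and 17.5% under the WT label. Of 10 mural cell genes 0 were called under either label; without SETD2 KD VE822 replicate 4, Des was called lower (-0.32, adjusted p = 0.0491). Of 8 fibroblast genes 0 were called under the SETD2 KD label and 5 higher under the WT label, with list means of 8.80 to 10.29 against 8.30 to 9.66 and of 9.22 to 11.89 against 8.13 to 10.10. The interaction called 0 of the 8, so a difference between labels was not shown. In the mean of both labels, 7 of the 8 fibroblast genes and 2 of the 10 mural cell genes were called higher. In that contrast 21.5% of all genes were called higher. Of 12 skeletal muscle genes 0 and 3 were called higher, and WT VE822 replicates 1, 2 and 4 and WT untreated replicate 4 stood out in that list (6.397 to 9.04, and at most 5.32 in the other libraries). Without those 4 libraries Vwf rose by 1.43 and 1.25 (adjusted p = 0.000241 and 0.00325). Red blood cell genes, which follow the blood in the sample, had list means of 5.98 to 7.70 against 5.62 to 6.29 under the SETD2 KD label and of 6.09 to 8.07 against 5.94 to 8.10 under the WT label, with 0 of 5 called. All 5 keratinocyte genes were below the filter.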

How the data were processed

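RNA sequencing of 24 mouse tumour libraries was used, and human libraries of the same series were not. The authors deposited the mouse table as rlog values, which are regularised log2 values, with 1 row per Ensembl gene; per the submitters' processing notes, GRCm38 was the mouse build and the tools included TopHat, HTSeq, DESeq2 and FastQC, with no versions. No source used here states the aligner settings, annotation or strandedness. Read counts cannot be recovered from rlog values, so the depth is unknown and no counting interval is given. Identifiers were named from GENCODE vM21 (98.16% of rows). Of 46078 rows, 16906 were 0 in all libraries and 15916 had a mean rlog of at least 3.

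Python 3.11.15 read the table, and limma 3.58.1 in R 4.3.3 fitted 4 group means over 24 libraries (empirical Bayes with a variance trend), with Benjamini-Hochberg adjustment over the genes tested and a threshold of 0.05. Groups came from the labels, which name no batch and pair no libraries. The members and gene lists were chosen with earlier results of these data known, and counts over them are descriptions. The text names all 10 members, up to 4 passing genes per list and the 10 genes closest to the set's mean. Other genes named (Fpgs, Igf2, the genes closest to Vwf, list members that were not called) were chosen after their values were seen. The fit was tested on simulated data. No 2 libraries were copies: the smallest root mean square difference between libraries was 0.146. Alternatives changed the filter, the libraries fitted, the variance trend, the library weights, the scaling and a muscle covariate, left out libraries high in muscle or adipocyte genes, and left out each library in turn.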

Additional observations from a re-analysis of the deposited data

Results flagged for a closer look

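Within the 4 groups, 40 sets of values (10 genes in 4 groups) were searched for a library far from the rest, by the gap to its nearest neighbour over the range of the group. Chance flags about 1 in 20 such groups, and 3 of 40 were flagged. SETD2 KD VE822 replicate 4 was flagged for Vwf, at 8.47, with the remaining 4 libraries of that group at 9.74 to 9.99. The same library was flagged for Flt1, at 10.58, where the other 4 lay between 8.94 and 9.36. SETD2 KD untreated replicate 2 was flagged for Cdh5, at 9.65, where the remaining 5 lay between 9.49 and 9.51, so the flag rests on how close those were to each other.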

How the results depend on the processing

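For the 10 genes in the VE822 comparisons within each label, and for Vwf and Esam in the other comparisons, 275 of the values recomputed under settings other than leaving out 1 library kept their direction and side of the threshold, 19 changed sign, 5 gained and 1 lost a call. None of the sign changes was of a called value. With library weights the SETD2 KD label differences were -0.13 for Cdh5, -0.034 for Tek and -0.022 for Tie1. With chromosome medians removed the WT label difference of Eng was 0.015. Without the 4 libraries high in skeletal muscle transcripts the WT label differences were -0.068 for Pecam1, -0.0089 for Cdh5, -0.086 for Kdr and -0.023 for Flt1. Without the 8 libraries high in adipocyte transcripts they were -0.025 for Pecam1, -0.029 for Cdh5 and -0.051 for Tie1. Under the SETD2 KD label they were then -0.18 for Pecam1, -0.34 for Cdh5, -0.094 for Kdr, -0.26 for Tek, -0.14 for Emcn, -0.038 for Flt1 and -0.24 for Tie1. The untreated difference of Esam between labels was then 0.0044. The cause of these changes was not tested.

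Of the counts of called genes, that of SETD2 KD VE822 against WT untreated was 1 with no filter on low values (Esam, adjusted p = 0.0533). The SETD2 KD label count was 2, with Esam, under library weights, with chromosome medians removed, without the muscle-high libraries and without the adipocyte-high libraries, and the WT label count was 2 without the adipocyte-high libraries. Leaving out each library in turn gave 1 to 2 called genes under the SETD2 KD label, 1 to 2 for SETD2 KD VE822 against WT untreated and 2 to 3 for the mean of both labels. Esam was called under the SETD2 KD label without SETD2 KD VE822 replicate 4 (adjusted p = 0.00208) and without WT VE822 replicate 4, 5 or 6 (0.0354, 0.0498 and 0.0437), and Eng without SETD2 KD VE822 replicate 2 (0.0473). WT libraries, which include all the muscle-high ones, are not part of the SETD2 KD label comparison. Leaving them out does not move its differences, only the estimate of spread that all groups share and the adjusted p-values.

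Leaving out each library in turn moved the SETD2 KD label differences over -0.071 to 0.41 for Pecam1, -0.25 to 0.28 for Cdh5, -0.093 to 0.43 for Kdr, -0.17 to 0.42 for Tek, -0.086 to 0.42 for Emcn, -0.021 to 0.39 for Flt1 and -0.15 to 0.40 for Tie1. The WT label differences ran over -0.052 to 0.32 for Pecam1, -0.0196 to 0.30 for Cdh5, -0.038 to 0.27 for Kdr and -0.0006 to 0.21 for Flt1. The untreated difference of Esam between labels ran over -0.058 to 0.0028. Vwf stayed within 1.33 to 1.71 under the SETD2 KD label and 1.15 to 1.34 under the WT label. No paired analysis was possible because the labels give no replicate numbers that tie libraries across groups. The depth is unknown, and rlog values understate differences of genes with few reads.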

Other observations

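SETD2 KD VE822 replicate 4 was at the untreated end of its group for some of the other vascular genes called higher with VE822 under at least the WT label: Angpt4 at 6.71, Acvrl1 at 9.67, Stab2 at 4.12, Icam1 at 9.47 and Pgf at 6.20 were each the lowest value of the 5 libraries. Its Vcam1 (11.44) and Angpt1 (4.74), also called higher, were the highest of the 5, which is the treated end. Its Vegfd (10.84) and Lyve1 (7.43), genes that fell with VE822, were the lowest of the 5, again the treated end. Its Nrp2 (13.63) and Ets1 (11.85), which fell with VE822, were the highest of the 5. Its Setd2 (9.96) lay nearer the other VE822 libraries than the untreated ones, which started at 10.70. The library therefore shared some treated features and not others, and the cause was not tested.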
